A study of Coccomyxa subellipsoidea C-169 with 6 samples.

Results

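The genes described here are 5 predicted membrane transporters of Coccomyxa subellipsoidea C-169, out of 9409 genes in the deposited abundance table. They comprise a sodium/sulfate symporter (54015), a sodium/dicarboxylate symporter (17172), a sodium-dependent phosphate transporter (13678), a nucleoside transporter (62444) and an amino acid transporter (36205). The names are those given by the study, which listed these genes among its most upregulated ones, so the members were chosen by their difference between the groups compared here. That difference is therefore given as a description, with no test. The groups were CG, cultures supplied with 2% CO2, and AG, cultures kept at 0.04% CO2. Both were of the same C-169 strain, a unicellular green alga, in Bold's Basal Medium under continuous light, and were harvested on day 4. For each group 3 biological replicates gave 1 library each, CG 1 to CG 3 and AG 1 to AG 3. Library totals were 2674507 to 3740989 counts in CG and 3825993 to 4969639 counts in AG, so the levels in CG came from the shallower libraries. Levels are given as CPM, counts relative to the library total after scaling by the TMM method, or as the deposited RPKM, which also divides by transcript length. A library holds the RNA of a whole culture, so more transcripts per cell and more cells with the transcript cannot be told apart.

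Sodium-coupled carriers use the sodium gradient across a membrane to bring an ion or a small organic acid in against its own gradient. Sulfate is the sulfur source and phosphate the phosphorus source of a green alga, and dicarboxylates such as malate link carbon and nitrogen metabolism. Nucleoside and amino acid transporters move nitrogen-containing molecules that a cell can take up, export or exchange between compartments. In land plants, relatives of the sodium/sulfate symporter family include dicarboxylate carriers of the plastid envelope, and in the study's sheet of enriched terms 54015 is matched to such a plant dicarboxylate transporter. Its name as a sulfate carrier is thus a prediction, and the substrates of the 5 proteins were not measured.

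All 5 genes had few transcripts in AG and many more in CG. Together they had 4812, 6281 and 8350 counts in CG 1, CG 2 and CG 3, against 50, 67 and 79 counts in AG 1, AG 2 and AG 3. They took 0.18 to 0.231% of the counts of the CG libraries and 0.00126 to 0.00175% of those of the AG libraries. The groups did not overlap for 5 of the 5 genes. The same held, with CG higher, for 31.5% of the 8637 genes tested, and nothing is read from the count of 5, since the choice of members fixed it. Of the 5 members, 3 (54015, 62444 and 36205) passed the filter for low counts only through their CG libraries.

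**Figure D1:**
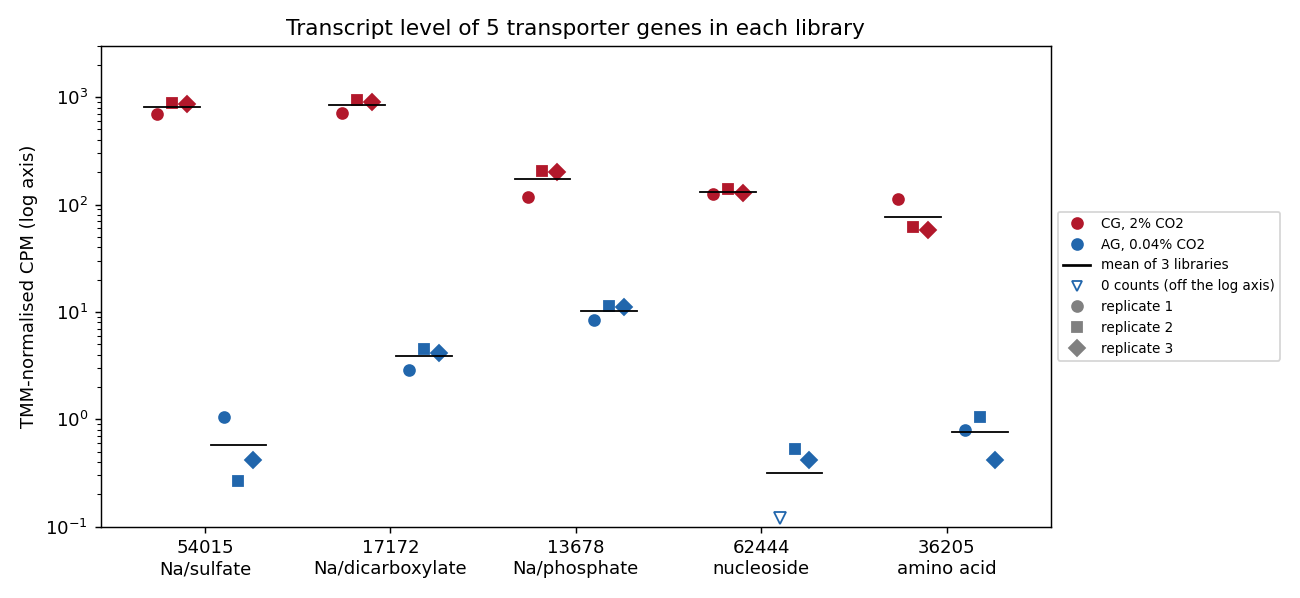
TMM-normalised CPM on a log axis for each transporter gene, with the 3 CG libraries left of the 3 AG libraries and a line at each group mean. Every CG library lies above 57 CPM and every AG library below 12 CPM, and the open triangle marks the AG 1 library, in which 62444 had 0 counts.

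The sodium/sulfate symporter 54015 had the largest increase of the 5. Its counts were 1915, 2488 and 3346 in CG 1, CG 2 and CG 3, against 4, 1 and 2 in AG 1, AG 2 and AG 3. Every CG library was thus far above every AG library, with a gap of 669-fold in CPM between the lowest CG and the highest AG value. The level was 816 ± 98.9 CPM in CG and 0.577 ± 0.416 CPM in AG (SD, n = 3 each). At equal depth the summed counts differed by a factor of 1460, with a 95% counting interval from 706 to 3620 (exact binomial). The width of that interval comes from the 7 counts found over the 3 AG libraries, and like all counting intervals here it covers counting error only. The fitted log2 fold change of CG relative to AG was 10.41, the 4th largest increase among the 8637 genes tested. With so few AG counts the value depends on the prior count added by the fit, and was 9.92 at a prior count of 1. The rank uses the difference by which the gene was chosen and is a description.

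The sodium/dicarboxylate symporter 17172, by its name a carrier for acids such as malate and succinate, was the most abundant of the 5 per transcript length in CG. It had 1932, 2647 and 3503 counts in CG 1, CG 2 and CG 3, against 11, 17 and 20 counts in AG 1, AG 2 and AG 3. In CPM these were 708, 936 and 907 in CG and 2.89, 4.49 and 4.18 in AG. CG 1 was the lowest of the CG libraries and still 158 times above the highest AG library. The group means were 851 ± 124 CPM in CG and 3.85 ± 0.851 CPM in AG (SD, n = 3 each), a ratio of summed counts of 221 (95% counting interval 167 to 301) and a log2 fold change of 7.77. Unlike 54015, this gene had enough counts in AG to pass the low-count filter there too.

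The sodium-dependent phosphate transporter 13678 had the smallest difference of the 5 and the highest transcript level in AG. Its counts were 317, 576 and 782 in CG 1, CG 2 and CG 3, against 32, 43 and 53 in AG 1, AG 2 and AG 3. The CPM values were 116, 204 and 203 in CG and 8.40, 11.4 and 11.1 in AG. CG 2 and CG 3 were nearly equal, while CG 1 had 57.2% of their mean. The groups remained apart, by 10.2-fold between the lowest CG and the highest AG library. The means were 174 ± 50.2 CPM in CG and 10.3 ± 1.64 CPM in AG (SD, n = 3 each), a 17.2-fold ratio of summed counts (95% counting interval 14.4 to 20.8) and a log2 fold change of 4.08. The study's sheet matches this gene to a phosphate transporter that in Arabidopsis lies in the plastid envelope.

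The nucleoside transporter 62444 varied least among the CG libraries. It had 340, 396 and 497 counts in CG 1, CG 2 and CG 3, against 0, 2 and 2 counts in AG 1, AG 2 and AG 3. A count of 0 in AG 1 allows a level of up to 0.787 CPM (3 counts). In CPM the CG values were 125, 140.1 and 129, a mean of 131 ± 7.97 in CG against 0.315 ± 0.279 in AG (SD, n = 3 each). The SD was 6.08% of the mean in CG, the smallest relative spread of the 5 genes. With only 4 counts over the AG libraries, the ratio of summed counts of 405 had a counting interval from 158 to 1490. The fitted log2 fold change was 8.52, and 7.78 at a prior count of 1.

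The amino acid transporter 36205 was the only one of the 5 with its highest value in CG 1. Its counts were 308, 174 and 222 in CG 1, CG 2 and CG 3, against 3, 4 and 2 in AG 1, AG 2 and AG 3. The CPM was 113 in CG 1 and 61.5 and 57.5 in CG 2 and CG 3, so that CG 1 stood at 190% of the mean of the other 2 CG libraries. The AG values were 0.787, 1.06 and 0.418 CPM, all at least 54.4 times below the lowest CG library. The means were 77.3 ± 30.9 CPM in CG and 0.754 ± 0.320 CPM in AG (SD, n = 3 each). The ratio of summed counts was 103 (95% counting interval 53.9 to 226) and the log2 fold change 6.66, or 6.26 at a prior count of 1.

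Levels of different genes can be compared only after division by transcript length. The ratio of the deposited counts to RPKM gives lengths of 2650 bases for 54015 and 1344 to 1482 bases for the other 4 genes. In CG the order of mean RPKM was 17172, 54015, 13678, 62444 and 36205. The sodium/dicarboxylate symporter 17172 had 652 ± 100.4 RPKM in CG against 2.79 ± 0.646 RPKM in AG, and the sodium/sulfate symporter 54015 had 317 ± 41.1 RPKM in CG against 0.210 ± 0.150 RPKM in AG (SD, n = 3 each). These 2 genes were far apart from each other and from the rest in every CG library. The phosphate transporter 13678, at 121 ± 35.7 RPKM in CG, and the nucleoside transporter 62444, at 97.5 ± 6.73 RPKM in CG, overlapped (SD, n = 3 each). In CG 1 the nucleoside transporter was the higher of these 2, at 91.7 RPKM against 80.0 RPKM for 13678, while in CG 2 and CG 3 the phosphate transporter was higher. The amino acid transporter 36205 was lowest in mean RPKM, at 56.1 ± 21.9 (SD, n = 3), although its CG 1 value of 81.3 RPKM exceeded that of 13678 in the same library.

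**Figure D2:**
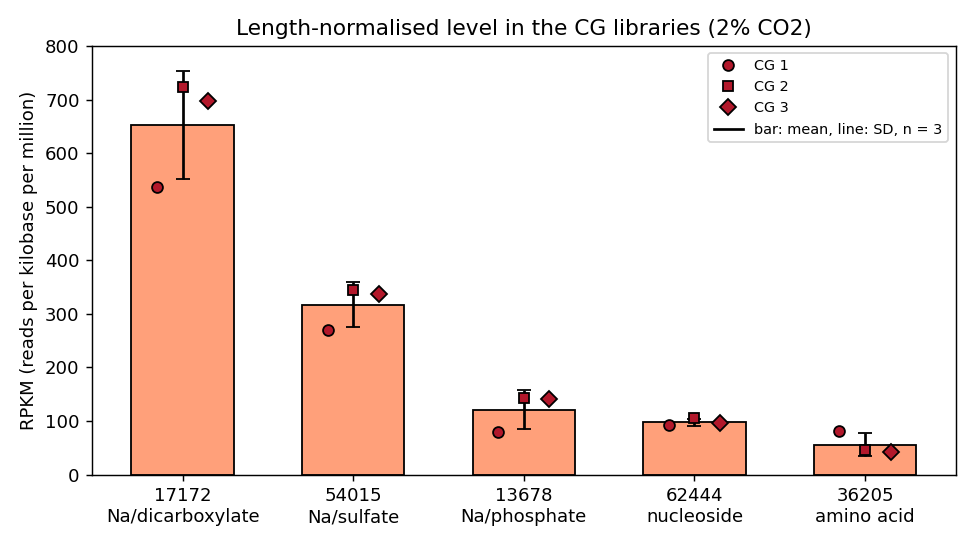
Deposited RPKM of the 5 genes in the CG libraries, with bars for the mean, lines for the SD (n = 3) and 1 point per library. The sodium/dicarboxylate symporter 17172 stands highest in each library, from 537 to 723 RPKM, and the points of 13678, 62444 and 36205 overlap.

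The order in AG was different. The phosphate transporter 13678 was highest there, at 6.74 ± 1.14 RPKM (SD, n = 3), followed by 17172. The amino acid transporter 36205, the nucleoside transporter 62444 and the sodium/sulfate symporter 54015 had 9, 4 and 7 counts over the group and could not be ranked among each other at this depth. Among all 9409 genes by mean RPKM, the sodium/dicarboxylate symporter ranked 108th in CG and 8477th in AG, and the phosphate transporter 1180th in CG and 7988th in AG. The sodium/sulfate symporter ranked 329th, the nucleoside transporter 1512th and the amino acid transporter 2833rd in CG, and no rank in AG is given for these because of their few counts.

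The proportions among the carriers in CG were steadier for some pairs than for others. The RPKM of 54015 was 50.3, 47.7 and 48.4% of that of 17172 in CG 1, CG 2 and CG 3. The RPKM of 13678 was 14.9, 19.7 and 20.2% of that of 17172 in the same libraries. The pair of sodium symporters for sulfate and dicarboxylate accounted for 76.1 to 78.8% of the RPKM summed over the 5 genes in CG and for 28.1 to 29.0% in AG.

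CG 1 stood apart from the other libraries of its group over all genes, with a correlation on log2 CPM of 0.939 with CG 2 and 0.926 with CG 3, against 0.987 between CG 2 and CG 3. Genes are not independent replicates, and these coefficients are a description. Among the 2355 genes that rose in CG, 69.9% were lower in CG 1 than the mean of CG 2 and CG 3, with a median of 86.2% of that mean. CG 1 had 80.4% of the mean of CG 2 and CG 3 for 54015, 76.9% for 17172 and 92.8% for 62444, and all 3 lay within the middle of the distribution of those genes. The phosphate transporter, at 57.2%, was lower in CG 1 than most, with 17.8% of the genes that rose having a still lower value. The amino acid transporter went the other way, and 98.7% of the genes that rose had a lower value of CG 1 relative to CG 2 and CG 3. Between CG 2 and CG 3 no member differed by more than 0.12 on the log2 scale. A difference of 1 library from 2 has no replicate check, and no test was made. Without CG 1 the log2 fold changes were 10.51 for 54015, 7.88 for 17172, 4.29 for 13678, 8.56 for 62444 and 6.29 for 36205.

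**Figure D3:**
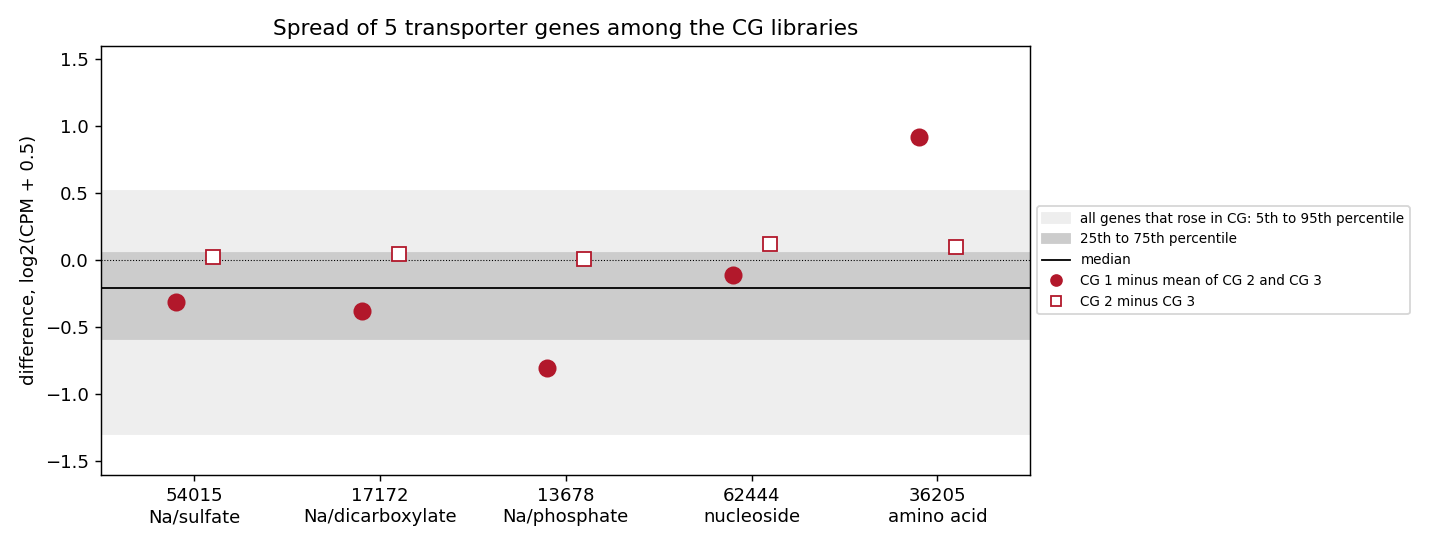
Differences between CG libraries in log2(CPM + 0.5) for the 5 genes, with filled circles for CG 1 minus the mean of CG 2 and CG 3 and open squares for CG 2 minus CG 3. The grey bands give the 5th to 95th and 25th to 75th percentiles of CG 1 minus the mean of CG 2 and CG 3 over the 2355 genes that rose, and 36205, at 0.92, lies above the outer band.

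The genes whose profiles were most like those of the carriers were sought among all genes tested, by the root mean square difference of centred log2 CPM over the 6 libraries. A prior count of 0.5 was added before the logarithm. The distance and place of a gene with 0 counts over all AG libraries are set by that prior, and no distance is given for such a gene. The prior and counting error also weigh on the distances of 62444, 54015 and 36205, which had 4, 7 and 9 counts over AG. This likeness uses the same libraries and the same difference between the groups, so it is a description. For the sodium/sulfate symporter 54015 the nearest genes were 44499, 57150 and 52218, and 52218 is named an ammonium transporter. The distances were 0.54 for 44499 and 0.76 for 52218. Within CG the likeness was poor. In CG 1, CG 2 and CG 3, 54015 had 702, 880 and 867 CPM. Gene 44499 had 1183, 729 and 704 CPM there and 57150 had 271, 178 and 148 CPM, both highest in CG 1. Gene 52218, at 726, 2551 and 2693 CPM, was lower in CG 1 by a far wider margin than 54015. Genes 44499 and 57150 carry no name in the files. In AG, 44499 had 9 counts over the 3 libraries and 57150 had 0, and their CG sums were 8004 and 1813 counts. For 57150 this is at least 795-fold higher in CG, against 3 counts over the AG group.

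For the sodium/dicarboxylate symporter 17172 the nearest genes were 41978, 54671 and 33625, of which 54671 and 33625 stood at 0.52 and 0.60 on the log2 scale. Gene 41978 had 249 counts over CG and 0 over AG, at least 109-fold higher in CG against 3 counts over the AG group. Gene 54671 is named by the study as a clavaminate synthase-like protein, an oxygenase that uses iron and oxoglutarate. It was also the nearest gene to the nucleoside transporter 62444, at 0.58, followed by 17172 itself at 0.65. These 2 carriers were the most alike of the 10 pairs among the members, and 54015 and 13678, at 3.20, the least alike. In these pairs 62444 and 54015 rest on 4 and 7 counts over AG. The phosphate transporter 13678 had the closest neighbours in profile of all 5, with differences of 0.11, 0.17 and 0.18. They were an NAD(P)H dehydrogenase (19760), the plastid glyceraldehyde-3-phosphate dehydrogenase 26453 and the kinesin 20645, a motor protein that moves along microtubules. With 128 counts over AG, 13678 had the most of the 5, so its distances are not on an equal footing with theirs. Gene 20645 had only 144 counts over CG and 11 over AG. Gene 19760 had 745, 1068 and 1062 CPM in CG 1, CG 2 and CG 3 and 51.4, 62.3 and 60.4 CPM in AG 1, AG 2 and AG 3, so that it shared the low CG 1 value of 13678. The nearest genes to the amino acid transporter 36205 were the ammonium transporters 65570 and 65572 and a gene of a Rossmann-fold protein, 47584, at 0.46, 0.48 and 0.51. Of these, 47584 was also highest in CG 1, at 1278 CPM against 563 and 547 CPM in CG 2 and CG 3, while 65570 and 65572 were level across the CG libraries. Genes 65570 and 65572 had fractional counts in 2 libraries and are uncertain to that extent.

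The position of the carriers in the genome was taken from the annotation of the RefSeq assembly GCF_000258705.1, to which 9372 of the 9409 genes of the table were matched by their number. The 5 genes lay on 4 scaffolds. The nucleoside and the amino acid transporter shared a scaffold, with 43 annotated genes between them. No span of a flanking gene overlapped that of a carrier, which matters here because reads from both strands were counted together. The counts of the 5 genes were whole numbers in all 6 libraries.

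The 10 genes flanking the carriers were not chosen by their levels and could be tested. Of these, 33625, 37341 and 61357, with 13, 3 and 21 counts over AG, passed the low-count filter only through their CG libraries. Their adjusted p are therefore given as a description. In edgeR's quasi-likelihood test 4 of the 10 flanking genes rose, 3 fell and 3 did not pass at an adjusted p under 0.05. Over all genes tested 27.3% rose and 25% fell, 52.2% in all. The flanking genes that rose include 33625, 37341 and 61357, so these counts are a description and nothing is read from them. One flanking gene behaved like its carrier. Gene 33625, next to the sodium/dicarboxylate symporter 17172 and also the third nearest to it in profile, had 283, 354 and 334 CPM in CG 1, CG 2 and CG 3, against 1.05, 1.85 and 0.418 CPM in AG 1, AG 2 and AG 3. On the log2 scale it rose by 8.21 ± 0.33 (standard error), at an adjusted p of 9.71e-06 in edgeR's quasi-likelihood test, and its ratio of summed counts was 310 (95% counting interval 181 to 582). The gene on the other side of 17172, 56477, did not pass, with a log2 fold change of 0.36 and an adjusted p of 0.204 in the same edgeR test. Gene 33625 carries no name in the files.

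**Figure D4:**
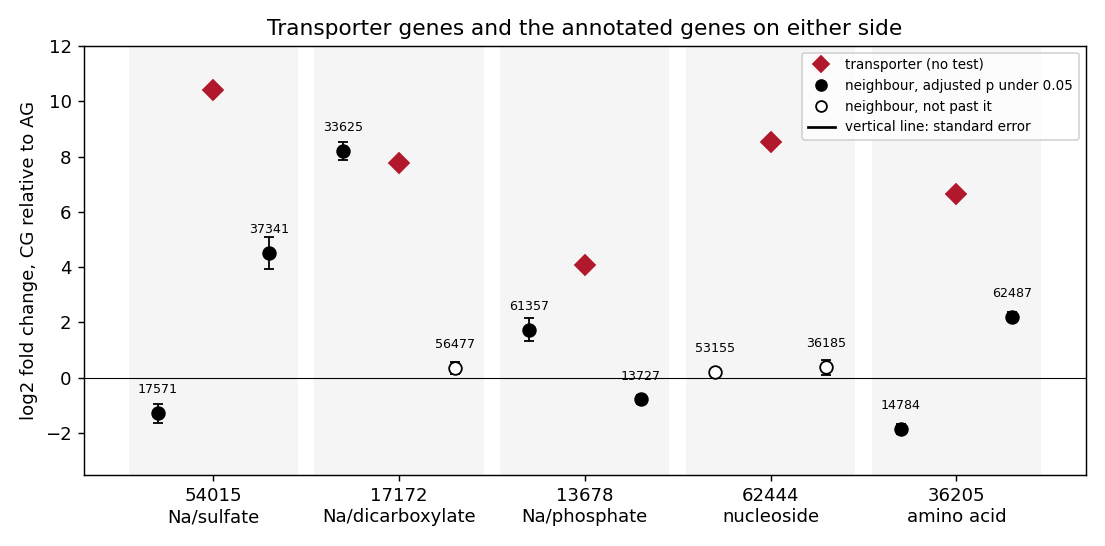
Log2 fold changes of CG relative to AG for each carrier (diamond, no test) and the annotated gene on either side (circles with the standard error, filled where the adjusted p was under 0.05). Only 33625, at 8.21, reaches the level of its carrier, 17172, at 7.77.

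The other flanking genes differed from their carriers. Next to the sodium/sulfate symporter 54015, the kinesin 37341 rose at a low level, with 60 counts over CG and 3 over AG, a ratio of 26.3 with a counting interval from 8.58 to 131 (edgeR adjusted p = 0.000706), and 17571 fell by 1.28 on the log2 scale (adjusted p = 0.0157 in edgeR). The call of 17571 was lost without AG 1, at an adjusted p of 0.0581 in edgeR. Beside the phosphate transporter 13678, 61357 rose by a log2 fold change of 1.74 and 13727 fell by 0.78 on the log2 scale (edgeR adjusted p = 0.0118 and 0.00442), and 61357 had fractional counts in 4 libraries. Neither gene flanking the nucleoside transporter 62444 passed, with log2 fold changes of 0.20 for 53155 and 0.38 for 36185 and adjusted p of 0.126 and 0.265 in edgeR. Beside the amino acid transporter 36205, the gene 62487 of the MATE family, whose members export organic compounds, rose by a log2 fold change of 2.21 and 14784 fell by 1.84 on the log2 scale (edgeR adjusted p = 6.68e-05 and 0.000265).

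The files hold no description of all genes, so other transporters of the same classes could be named only from the part of the study's sheet of enriched terms at hand, which lists 219 genes, some of them with no name. That sheet holds only genes the study had called changed on these libraries, so that their calls and directions are not independent evidence. In it 18 other genes belong by name to the classes of the 5 carriers. Of these 13 rose and 5 fell in edgeR's quasi-likelihood test at an adjusted p under 0.05, beside 27.3% and 25% of all genes tested, with a median log2 fold change of 1.58 beside -0.00549 over all genes tested. At the study's thresholds, an adjusted p under 0.001 and a log2 fold change above 1 or below -1, 14 of the 18 passed, beside 7.94% of all genes tested that passed as higher in CG and 5.6% as lower. That count of 14 fell to 5 when CG 2 or any 1 AG library was left out, and was 12 without CG 3 and 18 without CG 1.

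The classes did not move in 1 direction. Of the genes with the words phosphate transporter in their name in the part of the study's sheet at hand, only 13678 was higher in CG. The glucose-6-phosphate/phosphate translocator-related gene 56674 lies outside that wording and was not counted in the class. It rose by a log2 fold change of 2.12 (adjusted p = 0.000176 in edgeR). The other 3 genes so worded all fell, beside 25% of all genes tested. Their log2 fold changes were -1.90 for 19750, -1.29 for 26312 and -1.05 for 54617 (adjusted p = 0.00022, 0.000134 and 0.0304 in edgeR). The sheet lists only genes that the study had called changed, so phosphate transporters outside it are not covered. Gene 26312 had 101, 108 and 106 CPM in CG 1, CG 2 and CG 3, against 243, 270.2 and 256 CPM in AG 1, AG 2 and AG 3, so that its groups did not overlap. The call of 54617 was lost when CG 2, CG 3 or any 1 AG library was left out, at adjusted p from 0.0620 to 0.0992 in edgeR.

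Of 6 other amino acid transporters in the sheet 5 rose and 1 fell, beside 27.3% and 25% of all genes tested. The sheet lists only genes called by the study, so nothing is read from these counts. Of the 5, 13921 had fractional counts in 6 libraries and 48735 in 5. Genes 65909 and 29009 rose by log2 fold changes of 1.42 and 1.62 (adjusted p = 0.000319 and 0.000199 in edgeR). Gene 65909 had 1408 ± 105 CPM in CG against 527 ± 11.6 CPM in AG, and 29009 had 1204 ± 43.6 CPM in CG against 393 ± 36.2 CPM in AG (SD, n = 3 each). The bidirectional amino acid transporter 13338 had the largest log2 fold change of these 6, at 38.6 ± 4.49 CPM in CG and 1.17 ± 0.806 CPM in AG (SD, n = 3 each). Its log2 fold change was 5.05 (adjusted p = 4.44e-05 in edgeR), and it had fractional counts in 4 libraries. With 14 counts over AG it passed the low-count filter only through CG, so this adjusted p is a description. The one that fell, 13676, had 13.8 ± 9.32 CPM in CG against 80.3 ± 9.29 CPM in AG (SD, n = 3 each), a log2 fold change of -2.57 (adjusted p = 0.0015 in edgeR), with fractional counts in 3 libraries.

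The sheet lists only genes called by the study. Both other carriers of bases in it rose, beside 27.3% of all genes tested, and nothing is read from this count. They were 28179, matched to an azaguanine resistance protein of the purine carriers, with a log2 fold change of 4.11 (adjusted p = 4.81e-06 in edgeR), and the xanthine/uracil permease 47512, with one of 2.46 (adjusted p = 3.97e-05 in edgeR). Gene 28179 had 314 ± 25.8 CPM in CG and 18.2 ± 1.13 CPM in AG (SD, n = 3 each).

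Of 7 other genes named in the sheet as sodium or dicarboxylate carriers 6 rose and 1 fell, beside 27.3% and 25% of all genes tested. As these too were called by the study, nothing is read from the counts. The dicarboxylate transporter 22760, the nearest by name to 54015 and 17172, had 171, 307 and 327 CPM in CG 1, CG 2 and CG 3, against 50.6, 41.7 and 44.5 CPM in AG 1, AG 2 and AG 3. It rose by a log2 fold change of 2.56 (adjusted p = 0.000307 in edgeR). The sodium/proton exchanger 48419, which moves sodium out of the cytosol, rose by 2.03 and the sodium bile acid symporter family gene 52886 by 1.16 on the log2 scale (adjusted p = 0.000186 and 0.00152 in edgeR). Gene 52886 had fractional counts in 4 libraries. The other 4 were solute:sodium symporters matched to urea transport, of which 3 rose and 49153 fell by 1.62 on the log2 scale (adjusted p = 0.00153 in edgeR).

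**Figure D5:**
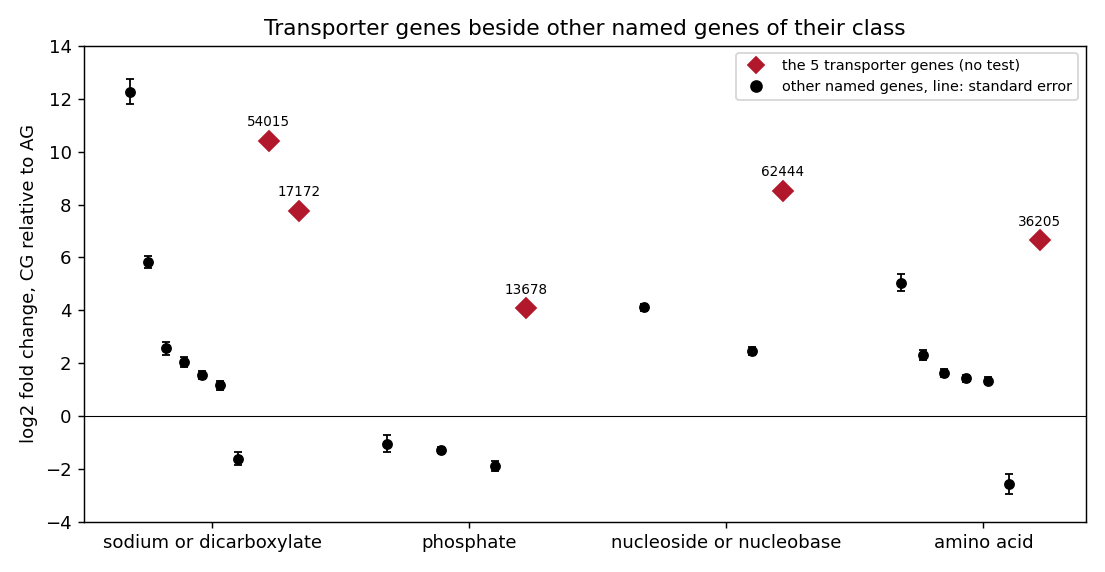
Log2 fold changes of CG relative to AG for the 5 carriers (diamonds, no test) and the 18 other named genes of their classes (circles with the standard error). The 3 other genes with phosphate transporter in their name lie below 0, from -1.90 to -1.05. The highest circle, at 12.27, is the urea transporter 53548. It had 1 count over the AG libraries, so that its fitted value depends on the prior count.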

How the data were processed

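Transcripts were measured by digital gene expression sequencing in 3 CG and 3 AG libraries. The authors mapped clean reads of 36 nt with Bowtie, whose version is not given in the sources used here, against transcripts of C-169 from Phytozome, allowed 1 mismatch and counted both strands. The deposited table holds these counts, of which 8.06% are fractional and which are therefore taken as estimated counts, and the RPKM values that the authors computed from them per transcript length and library total. The authors' own comparison (log2 fold change and FDR, an adjusted p-value) and mean columns of the deposited table were not used. The study describes counting only reads matched to a single gene, with which fractional counts are at odds, and their origin is not given in the sources used here.

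Rounded counts were then fitted by edgeR 4.0.16 under R 4.3.3 (TMM, filterByExpr, robust quasi-likelihood, group as the only factor), with Benjamini-Hochberg adjustment over 8637 genes. The standard error is the log2 fold change divided by the square root of F. Ratios of summed counts have exact binomial 95% intervals at equal depth. The fit was tested on simulated data. The 5 members and all lists were chosen with earlier results of these data known. Genes named are the members, the annotated gene on either side of each, the 3 genes nearest in profile, genes of the same transporter class, and the 3 largest rises and falls among annotated transporters of at least 10 CPM. The rule set up to 4 genes of a class by protein alignment score. Without alignments the genes named in the amino acid and sodium classes were chosen after their values were seen. The choice of paralogs by protein sequence was planned but replaced by product names, since no protein sequences or product names of all genes were used here, and the name patterns were written after the files had been seen. Sequences and motifs were therefore not analysed here. Alternatives were other scalings and filters, unrounded counts, limma 3.58.1 on log2 RPKM, DESeq2 1.42.0, a replicate block and each library left out. Figures were drawn in Python 3.11.15 with matplotlib 3.10.9.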

Additional observations from a re-analysis of the deposited data

How the results depend on the processing

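The spread of a member was taken as the square root of its summed variances of log2 CPM within CG and within AG. It was widest for 62444, at 1.25, and 54015, at 0.823, which had 4 and 7 counts over AG. A sizeable move of these can thus stay below it. Of 95 values of the 5 members under the alternatives, 0 changed sign and 89 moved by less than this spread. The other 6 were from limma on log2(RPKM + 1), with and without the filter, which gave 8.04 for 54015, 6.34 for 62444 and 5.18 for 36205 in place of 10.41, 8.52 and 6.66, since a pseudocount of 1 exceeds their AG levels. With 1 library left out the log2 fold changes were 10.11 to 11.05 for 54015, 7.60 to 7.88 for 17172, 3.95 to 4.29 for 13678, 8.02 to 8.94 for 62444 and 6.29 to 6.96 for 36205. Calls of 3 genes changed: 54617 and 17571 as described, and 53155, which passed with library totals only and in limma, at adjusted p from 0.0439 to 0.0459. At an adjusted p under 0.05, the transporters of the same classes that rose numbered 13 under every alternative run and those that fell 4 to 5, while all genes that rose numbered 1825 to 2963 and all that fell 1646 to 2983. At an adjusted p under 0.001 and a log2 fold change beyond 1, 14 of the 18 class members passed, against 5 to 18 with 1 library left out, an evaluation added after seeing the data. All genes above a log2 fold change of 1 at an adjusted p under 0.001 numbered 686, against 1173 in DESeq2 and 125 to 1365 with 1 library left out, of which 1365 came from the fit lacking CG 1, and 125, 151 and 127 from the fits lacking AG 1, AG 2 and AG 3. Leaving out CG 2 gave 230 and leaving out CG 3 gave 324. With the replicate number as a block they were 206, and the class members past the same thresholds 5. The labels do not say whether the numbers pair the cultures. Deviations of same-numbered libraries correlated at -0.0289, 0.0324 and -0.0472. Libraries of different number were not compared in this way, so these values do not decide it. The paralog alternatives by E-value were not run, as no protein sequences were used here. Depth limits the AG levels of 54015, 62444 and 36205, which rest on 7, 4 and 9 counts.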

Other observations

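Among all 27 other genes named as transporters in the same sheet, 18 rose and 9 fell, beside 27.3% and 25% of all genes tested, again a list of genes that the study had called on these libraries. Beside the urea transporter 53548, with 5437 counts over CG and 1 over AG, the largest increases were those of the ammonium transporter 52218, at 726, 2551 and 2693 CPM in CG 1, CG 2 and CG 3 against 1.67 to 3.67 CPM in AG, and of the urea transporter 30678. The largest decreases were those of the ABC transporter gene 27760, at 50.6 ± 10.8 CPM in CG and 360.4 ± 77.3 CPM in AG (SD, n = 3 each) and with fractional counts in 6 libraries, and of 13676 and 19750, described above. Of the 27 genes, 22 had a smaller log2 fold change than 13678, the lowest of the 5 carriers. The carriers were chosen for their large increases, so nothing is read from this count.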
